A study of Homo sapiens with 6 samples.

Results

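AMP-activated protein kinase (AMPK) and the kinases that switch it on were followed as 10 genes in SH-SY5Y cells, a human neuroblastoma line, after adenoviral delivery of PGC-1a or GFP. The genes were taken by symbol, through the Ensembl IDs of the count table. They are the catalytic subunit genes PRKAA1 and PRKAA2, the scaffold subunit genes PRKAB1 and PRKAB2, the nucleotide-binding subunit genes PRKAG1, PRKAG2 and PRKAG3, and the upstream kinase genes STK11, CAMKK1 and CAMKK2. All 10 have a row among the 58096 gene rows of the count table, and 9 had enough reads to be tested among 19343 genes. The PGC1A group comprised 3 libraries of cells given 2 ul of the PGC-1a virus for 48 h, and the GFP group 3 libraries of cells given 2 ul of the GFP virus for 48 h. The virus titre is not given in the sources used here and no uninfected cells were analysed here, so a difference in virus dose cannot be told apart from the effect of PGC-1a. Whether each library was a culture of its own is not labelled, and p-values therefore rest on the spread among these libraries, which may be technical. The stated question is how gene expression responds to PGC-1a in this line.

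AMPK is an energy sensor that works as a trimer of one alpha, one beta and one gamma subunit. AMP and ADP bind the gamma subunit when ATP runs low, the beta subunit holds the complex together and binds glycogen, and the alpha subunit phosphorylates targets that slow ATP-consuming synthesis and speed fuel oxidation. The alpha subunit must itself be phosphorylated on its activation loop, by LKB1 (encoded by STK11) or by the calcium-dependent kinase CaMKK2, and in muscle active AMPK is known to phosphorylate PGC-1a.

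Reads assigned to genes ranged from 28353957 to 30406182 in the PGC1A libraries and from 24988743 to 31762496 in the GFP libraries. PPARGC1A, which encodes PGC-1a, had 109350, 104546 and 103737 counts in the PGC1A libraries, against 98, 131 and 135 counts in the GFP libraries. Reads of the delivered gene and of the cells' own gene cannot be told apart in these counts. The species of the insert is not given in the sources used here. The labels call the cells neuronal progenitors. Noradrenergic neuroblastoma markers were present, with summed levels of 1006 to 1016 CPM (read counts scaled to a common library size) in PGC1A and 1838 to 1865 CPM in GFP over 10 genes, although TH had only 21 counts over the PGC1A libraries and 0 over the GFP libraries. Of 6 neural progenitor markers, NES made up most of the sum (183 CPM in PGC1A and 747 CPM in GFP), while FABP7 and HES5 had 0 and 1 counts over the PGC1A libraries and 2 and 6 over the GFP libraries. Mesenchymal-type neuroblastoma markers summed to 1608 to 1639 CPM in PGC1A and 3313 to 3366 CPM in GFP over 8 genes. The 6 Schwann and glial markers summed to 3.96 to 4.56 CPM in PGC1A and 8.62 to 9.55 CPM in GFP, with SOX10 at 0. The 8 leukocyte, epithelial, endothelial and hepatocyte markers summed to 40.5 to 45.3 CPM in PGC1A and 23.8 to 26.6 CPM in GFP, mostly KRT18, with CD3E at 0. Transcripts of the mitochondrial genome took 13.9% ± 0.256 of gene counts in PGC1A and 6.65% ± 0.216 in GFP (SD, n = 3). In bulk RNA a change in the cells present and a change in RNA per cell cannot be told apart. Beyond scalings that leave out the mitochondrial genome, the part of these shifts in the results was not tested.

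The AMPK subunit genes were all higher in the PGC1A libraries under TMM scaling, apart from PRKAG3, which had no reads. The catalytic gene PRKAA2 rose 7.05-fold and the other 5 expressed subunit genes 1.14-fold to 1.81-fold, although the smallest of these changes, that of PRKAG2, turned lower with total counts. Among the upstream kinases STK11 rose 1.35-fold, and neither CAMKK gene passed the test. In all, 7 of the 9 tested genes passed an adjusted p of 0.05 (edgeR quasi-likelihood test), all 7 higher. Of all genes tested 83.0% passed, 40.9% higher and 42.1% lower in PGC1A, so the share of 77.8% that passed among these genes was near that of all genes. The median log2 fold change was 0.44 over the 9 genes and −0.03 over all genes tested, where rises and falls offset each other. Without regard to sign, the median log2 change was 0.44 over the 9 genes and 0.70 over all genes tested. Groups did not overlap in 7 of the 9 genes, against 83.6% of all genes. Tested against a 1.5-fold change with glmTreat, PRKAA2, PRKAB2 and PRKAB1 passed, 3 of 9, where 47.8% of all genes passed, 24.6% higher and 23.1% lower.

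**Figure D1:**
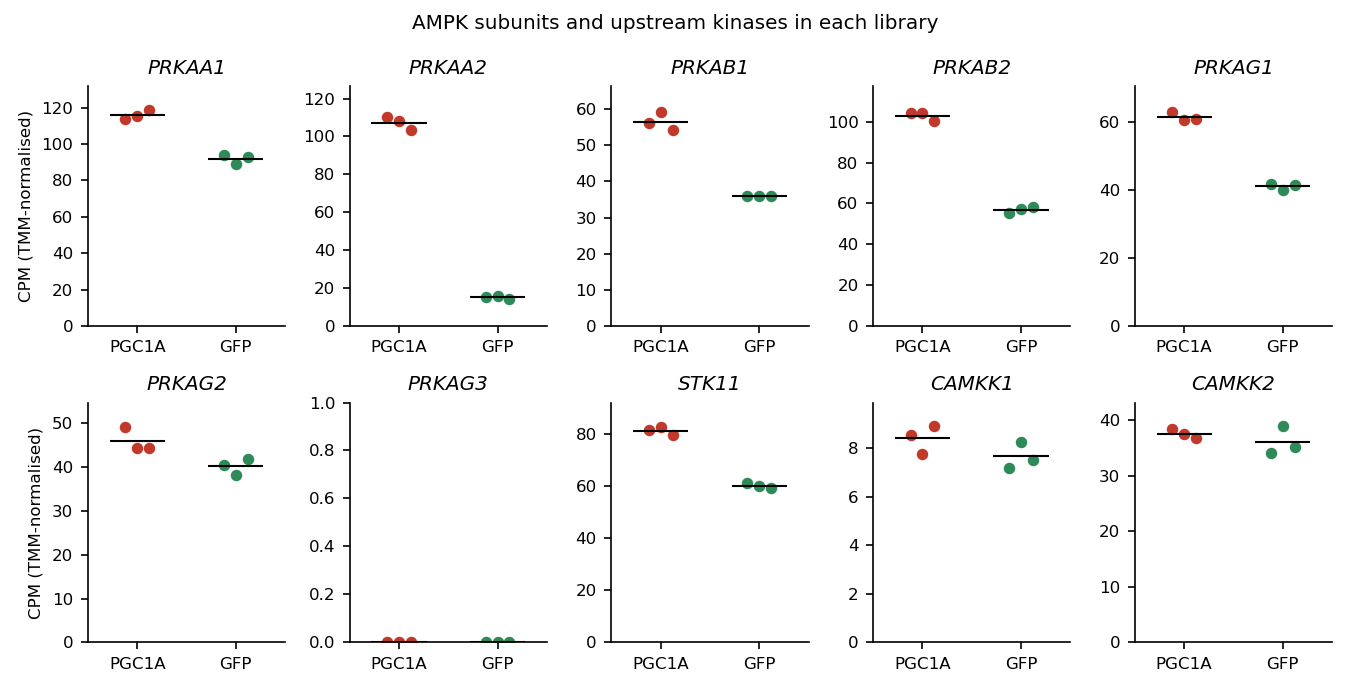
TMM-normalised CPM (vertical axis) of each of the 10 genes in the 3 PGC1A and the 3 GFP libraries, with a point per library and a bar at the group mean. PRKAA2 stands at 103 to 110 CPM in PGC1A against 14.4 to 15.8 CPM in GFP, the groups of CAMKK1 and CAMKK2 overlap, and PRKAG3 has no reads.

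The direction or the call of the small changes depends on how libraries are scaled, and this bears on PRKAA1, PRKAG2, CAMKK1 and CAMKK2. Relative to TMM, the all-gene median shifted by −0.33 on the log2 scale when libraries were scaled to total counts, −0.21 when scaled to the total of nuclear genes, and by −0.13 with upper-quartile factors. PRKAA2, PRKAB1, PRKAB2, PRKAG1 and STK11, 5 of the 9, were higher and past the threshold under all 4 scalings. Relative to the median of all genes, the 9 log2 differences ran from 0.09 for CAMKK2 to 2.85 for PRKAA2.

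**Figure D2:**
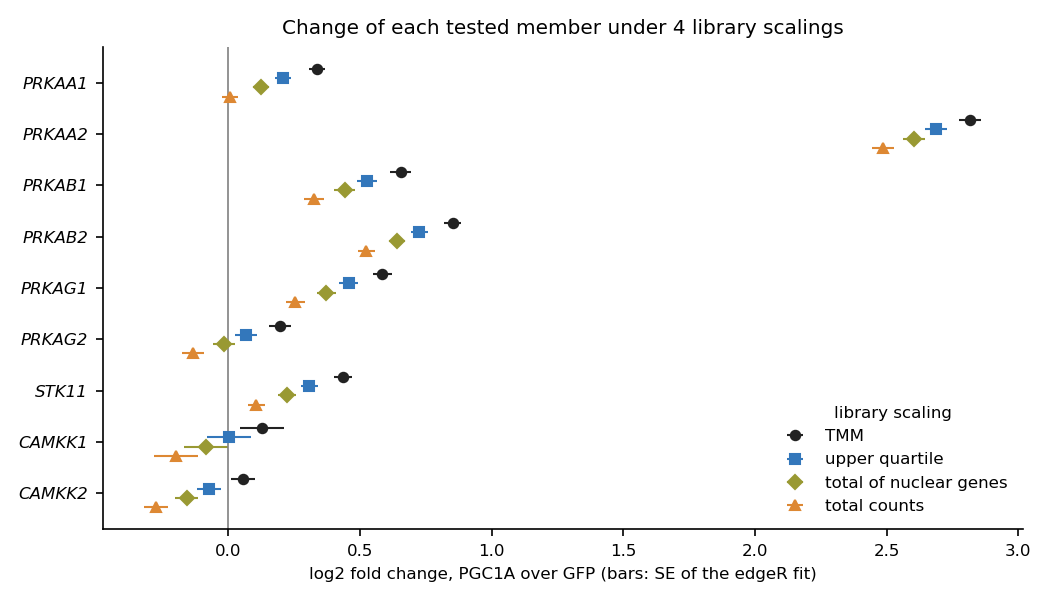
Log2 fold change of PGC1A over GFP (horizontal axis) for the 9 tested genes under 4 library scalings, with bars for the standard error of the edgeR fit. PRKAA2 lies at 2.49 to 2.82 under every scaling shown, while PRKAG2 ranges from −0.13 to 0.19 and CAMKK2 from −0.28 to 0.05.

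PRKAA2 (ENSG00000162409.10, chromosome 1, 56645322 to 56715335, plus strand, GRCh38) encodes alpha-2, the catalytic subunit that predominates in skeletal and cardiac muscle. It had 2951, 2841 and 2636 counts in the PGC1A libraries, against 435, 524 and 513 in the GFP libraries. Every PGC1A library lay far above every GFP library. Normalised, PRKAA2 averaged 107 ± 3.56 CPM in PGC1A and 15.2 ± 0.739 CPM in GFP (SD, n = 3). The log2 difference was 2.82, with a standard error (SE) of 0.04 and an edgeR adjusted p of 2.43e-46. Its absolute change was larger than that of 93.9% of all genes tested. For the other tested genes of the set this share ran from 4.34% for CAMKK2 to 57.6% for PRKAB2. Per kilobase of exon its level exceeded 79.1% of protein-coding genes in PGC1A and 47.9% in GFP. Beside this rise, 6 skeletal muscle markers summed to 20.0 to 21.99 CPM in PGC1A and 5.37 to 5.85 CPM in GFP. Only 3 of these markers had enough reads to be tested, of which 2 were higher and 1 did not pass. The muscle creatine kinase CKM held 629 counts over the PGC1A libraries and 10 over the GFP libraries, whereas the fast myosin gene MYH2 had 0 counts in PGC1A and 1 in GFP, and the muscle regulator MYOG 3 in PGC1A and 0 in GFP. The part of muscle-type expression in the PRKAA2 result was not tested.

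PRKAA1 (ENSG00000132356.11, chromosome 5, 40759379 to 40798374, minus strand) encodes alpha-1, the catalytic subunit found in most tissues. It stood at 114, 115 and 119 CPM in the PGC1A libraries, against 93.8, 89.0 and 92.9 CPM in the GFP libraries. The groups did not overlap, and the gap was small beside that of PRKAA2. The log2 fold change was 0.34 (SE 0.03, adjusted p = 2.14e-14, edgeR), which was 0.01 with total counts (adjusted p = 0.863) and did not pass against a 1.5-fold change (glmTreat adjusted p = 1).

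The catalytic genes were closer in level in PGC1A than in GFP. Per kilobase of exon, PRKAA2 ran at 0.679, 0.657 and 0.612 of the PRKAA1 level in the PGC1A libraries, against 0.116, 0.125 and 0.109 in the GFP libraries. The ratio within a library does not depend on the scaling of libraries. Its log2 value was higher by 2.48 in PGC1A, a 5.58-fold difference, beside SDs of 0.08 in PGC1A and 0.10 in GFP (exact two-sided permutation p = 0.1, the smallest that 3 against 3 libraries allow, or 0.125 adjusted over 5 ratios). Alpha-2 made up 39.3% ± 1.27 of the summed alpha level in PGC1A and 10.4% ± 0.635 in GFP (SD, n = 3). With the longest transcript as the gene length, the share was 33.5% in PGC1A and 8.28% in GFP.

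The promoter windows of the catalytic genes are shown because the genes differed most in size of change within a subunit class. Each window runs from 250 bases before the RefSeq start to 50 after it (GRCh38.p14), read 5′ to 3′ on the gene's strand, at chr1:56645064-56645363 on the plus strand for PRKAA2 and chr5:40798128-40798427 on the minus strand for PRKAA1. The third window, at chr7:151736214-151736513 on the minus strand, belongs to 1 of 5 RefSeq starts of PRKAG2 and is shown because it alone held the estrogen-related receptor element. Capitals mark matches to the motifs searched.
PRKAA2: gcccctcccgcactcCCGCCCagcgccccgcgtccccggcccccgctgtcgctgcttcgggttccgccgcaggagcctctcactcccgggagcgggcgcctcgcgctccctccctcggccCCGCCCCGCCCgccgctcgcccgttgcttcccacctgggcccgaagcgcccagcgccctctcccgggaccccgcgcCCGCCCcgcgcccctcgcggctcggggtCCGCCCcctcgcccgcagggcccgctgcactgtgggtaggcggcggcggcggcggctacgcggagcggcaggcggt
PRKAA1: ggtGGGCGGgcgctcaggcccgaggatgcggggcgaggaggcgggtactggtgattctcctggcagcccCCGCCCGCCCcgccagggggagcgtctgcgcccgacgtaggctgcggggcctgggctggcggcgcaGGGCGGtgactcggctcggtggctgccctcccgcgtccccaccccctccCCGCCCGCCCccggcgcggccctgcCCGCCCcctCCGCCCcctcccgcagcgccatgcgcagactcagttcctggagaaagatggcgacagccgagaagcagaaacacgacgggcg
PRKAG2: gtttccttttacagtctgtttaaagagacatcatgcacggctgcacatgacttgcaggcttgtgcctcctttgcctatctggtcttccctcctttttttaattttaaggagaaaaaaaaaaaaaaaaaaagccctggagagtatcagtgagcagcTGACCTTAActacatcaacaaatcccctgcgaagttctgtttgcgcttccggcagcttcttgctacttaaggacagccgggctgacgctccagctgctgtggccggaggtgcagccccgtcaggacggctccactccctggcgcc

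All 10 genes had a window, 15 windows in all. Motifs were searched on both strands, and overlapping matches were counted. The receptor element TNAAGGTCA, known as a site of the PGC-1a partner ERR-alpha, was matched in 1 of 15 windows, at position 156 of the PRKAG2 window counted from its first base, on the opposite strand. The shorter run AAGGTCA inside it matched at the same place and in no other window. Among 27305 promoters of the same length, 0.963% held the element and 3.97% the shorter run. The GC box GGGCGG was matched 5 times in the PRKAA2 window and 8 times in the PRKAA1 window, in 9 of 15 windows, and in 44.6% of all promoters. The NRF1 core CGCATGCG, the ETS site CCGGAAGT, the cyclic AMP element TGACGTCA and the E-box CACGTG had no match in these windows and were held by 2.19%, 4.44%, 1.98% and 7.43% of all promoters. A match is a run of letters and not a measured binding site, and the windows do not cover distal elements.

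The scaffold genes both rose, under every scaling run. PRKAB2 (ENSG00000131791.7, chromosome 1, 147155106 to 147172550, minus strand), for the beta-2 subunit common in muscle, stood at 104, 104 and 100.2 CPM in the PGC1A libraries, against 55.4, 57.4 and 58.0 CPM in the GFP libraries. The groups were well apart, by 0.85 on the log2 scale (SE 0.03, edgeR adjusted p = 8.13e-29). PRKAB1 (ENSG00000111725.10, chromosome 12, 119667753 to 119681630, plus strand), for beta-1, stood at 56.1, 59.2 and 54.2 CPM in PGC1A, against 35.9 CPM in each GFP library. Its log2 fold change was 0.65 (SE 0.04, adjusted p = 9.69e-21). PRKAB2 was the more abundant beta gene in every library, at 2.09 ± 0.0630 times the PRKAB1 level per kilobase in PGC1A and 1.81 ± 0.0446 in GFP (SD, n = 3). With the longest transcript as length these were 1.35 in PGC1A and 1.18 in GFP. The log2 ratio was higher by 0.20 in PGC1A under either length (exact permutation p = 0.1, adjusted 0.125).

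Among the gamma genes PRKAG1 moved most. PRKAG1 (ENSG00000181929.11, chromosome 12, 49002274 to 49018825, minus strand), for the widely expressed gamma-1, stood at 62.9, 60.5 and 60.8 CPM in PGC1A, against 41.6, 39.8 and 41.5 CPM in GFP. The groups did not overlap, and the log2 fold change was 0.58 (SE 0.04, adjusted p = 7.90e-20, edgeR), short of passing against a 1.5-fold change (glmTreat adjusted p = 0.449). An antisense gene, DDN-AS1, covers 12.7% of its exon bases. The library kit kept strand, but whether the counting used it is not given in the sources used here, so reads of antisense partners cannot be told apart. PRKAG2 (ENSG00000106617.13, chromosome 7, 151556111 to 151877125, minus strand), for gamma-2, whose mutations are known for a glycogen storage disease of the heart, stood at 49.2, 44.5 and 44.5 CPM in PGC1A, against 40.6, 38.3 and 41.9 CPM in GFP. Its groups did not overlap under TMM, by a narrow margin. The log2 fold change was 0.19 (SE 0.04, adjusted p = 5.30e-05), which was −0.13 with total counts (adjusted p = 0.00316) and 0.07 with upper-quartile factors (adjusted p = 0.133). The PRKAG2 to PRKAG1 log2 ratio was lower by 0.39 in PGC1A (difference −0.39, exact permutation p = 0.1, adjusted 0.125), with linear values of 0.466 ± 0.0178 in PGC1A and 0.610 ± 0.0157 in GFP. PRKAG3 (ENSG00000115592.11, chromosome 2, 218822383 to 218832086, minus strand), whose gamma-3 product is largely limited to skeletal muscle, had 0 counts in all 6 libraries, and a count of 0 allows a level of up to 0.0842 to 0.118 CPM per library (3 counts, counting error only).

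Summed per subunit class, the alpha genes reached 29.1 ± 0.0407 CPM per kilobase of exon in PGC1A and 15.6 ± 0.349 in GFP (SD, n = 3). The beta genes reached 27.9 ± 0.782 in PGC1A and 16.2 ± 0.259 in GFP, and the gamma genes 21.5 ± 0.716 in PGC1A and 15.8 ± 0.498 in GFP. All 3 sums were higher in every PGC1A library than in any GFP library. On the log2 scale the alpha sum differed by 0.90, the beta sum by 0.79 and the gamma sum by 0.45 under TMM. With the longest transcript as length, the gamma sum became the highest of the 3 in both groups, at 50.1 CPM per kilobase in PGC1A and 36.3 in GFP, so the order of classes rests on the length used.

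**Figure D3:**
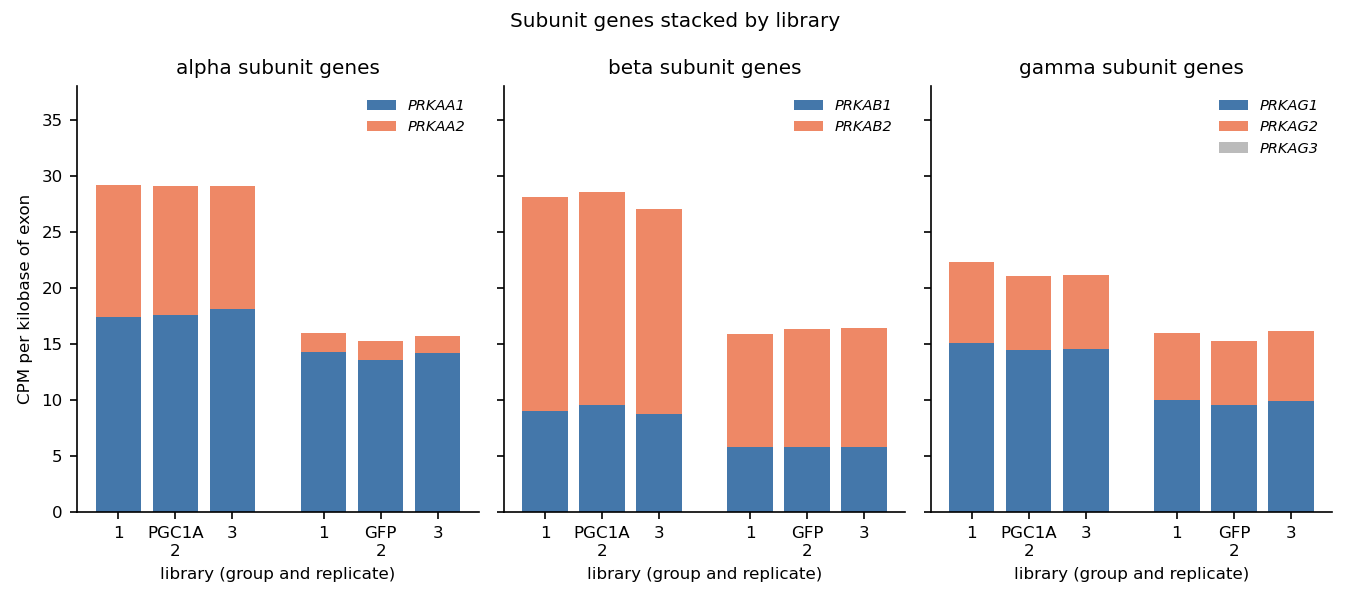
CPM per kilobase of annotated exon (vertical axis) of the alpha, beta and gamma genes, stacked within each of the 3 PGC1A and 3 GFP libraries. The alpha stack is 29.1 in PGC1A and 15.6 in GFP, with the added height mostly PRKAA2.

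Of the upstream kinases, STK11 (ENSG00000118046.14, chromosome 19, 1177558 to 1228435, plus strand) encodes LKB1, the main AMPK kinase and a tumour suppressor. It stood at 81.8, 82.7 and 79.6 CPM in the PGC1A libraries, against 61.3, 60.0 and 59.3 CPM in the GFP libraries. The groups did not overlap, and the log2 fold change was 0.44 (SE 0.03, adjusted p = 5.96e-17, edgeR), not past a 1.5-fold change (glmTreat adjusted p = 1). With total counts the change was 0.11 (adjusted p = 0.0031).

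CAMKK2 (ENSG00000110931.18, chromosome 12, 121237691 to 121298308, minus strand), the calcium-dependent AMPK kinase of neurons, stood at 38.4, 37.5 and 36.7 CPM in PGC1A, against 34.1, 39.0 and 35.2 CPM in GFP. The PGC1A values lay inside the GFP range. The log2 fold change was 0.05 (95% interval −0.04 to 0.14, adjusted p = 0.256, edgeR). It turned to −0.28 with total counts (adjusted p = 2.25e-07) and to −0.16 with the total of nuclear genes (adjusted p = 0.00112), and without GFP replicate 2 it was 0.11 (adjusted p = 0.027). CAMKK1 (ENSG00000004660.14, chromosome 17, 3860315 to 3894891, minus strand), a related kinase that also acts on CaMKI, CaMKIV and AKT, stood at 8.56, 7.75 and 8.90 CPM in PGC1A, against 7.20, 8.27 and 7.53 CPM in GFP. Those groups overlapped too. The log2 fold change was 0.13 (95% interval −0.04 to 0.30, adjusted p = 0.147), against 0.20 without PGC1A replicate 2 (adjusted p = 0.0499) and −0.20 with total counts (adjusted p = 0.0242). The CAMKK2 to STK11 log2 ratio, which no scaling affects, differed by −0.38 between PGC1A and GFP (exact permutation p = 0.1, adjusted 0.125). Its linear values per kilobase were 0.575 ± 0.0103 in PGC1A and 0.748 ± 0.0593 in GFP (SD, n = 3), or 0.293 in PGC1A and 0.381 in GFP with the longest transcript as length. The CAMKK1 to CAMKK2 log2 ratio differed by 0.07 (exact permutation p = 0.4, adjusted 0.4).

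In order of level per kilobase of exon, the PGC1A libraries had PRKAB2 (18.9 CPM per kilobase), PRKAA1 (17.7), PRKAG1 (14.7), PRKAA2 (11.5), STK11 (9.42), PRKAB1 (9.05), PRKAG2 (6.83), CAMKK2 (5.42) and CAMKK1 (1.13). The GFP libraries had PRKAA1 (14.0 CPM per kilobase), PRKAB2 (10.4), PRKAG1 (9.79), STK11 (6.97), PRKAG2 (5.97), PRKAB1 (5.75), CAMKK2 (5.21), PRKAA2 (1.63) and CAMKK1 (1.03). The ranges of STK11 (9.21 to 9.57) and PRKAB1 (8.68 to 9.48) overlapped across the PGC1A libraries, although STK11 was the higher within each. In the GFP libraries the range of PRKAG2 (5.68 to 6.22) took in all 3 values of PRKAB1 (each 5.75). The order rests on the length used. With the longest transcript as length PRKAG1 came first in both groups, at 36.1 CPM per kilobase in PGC1A and 24.1 in GFP. PRKAA2, at 11.5 CPM per kilobase in PGC1A and 1.63 in GFP, then lay below STK11 (22.9), PRKAB1 (14.1) and PRKAG2 (13.9) in PGC1A, and below CAMKK1 (1.97) in GFP.

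The genes whose pattern lay nearest to PRKAA2 over the 6 libraries, among 13126 protein-coding genes with a mean of at least 1 CPM, were MRPL2, PARD6A and ALAS1. Likeness was the root mean square difference of log2 CPM values centred on each gene's mean, which was 0.0255 for MRPL2, 0.0303 for PARD6A and 0.036 for ALAS1. MRPL2 encodes a mitochondrial ribosomal protein, PARD6A a cell polarity protein and ALAS1 the first enzyme of heme synthesis. Their log2 fold changes were 2.77, 2.79 and 2.81. The measure rests almost entirely on the difference between the groups, so it ranks genes by a like fold change.

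Genes around AMPK were grouped in 6 lists. Of all genes tested, 40.9% were higher and 42.1% lower with TMM, the shares to set beside each list. With total counts 5778 of the 19343 were higher and 10743 lower, so that scaling leans lower for all genes. Of 20 LKB1 partners and regulators of AMPK, 9 rose and 9 fell, and the median change was −0.08 on the log2 scale. With total counts 6 were higher and 11 lower. SESN2, a stress-induced sestrin, fell to 21.5 ± 0.904 CPM in PGC1A, against 71.7 ± 2.42 CPM in GFP (log2 fold change −1.74, adjusted p = 4.90e-37, edgeR). FNIP2, a partner of folliculin that binds AMPK, stood at 20.5 ± 1.13 CPM in PGC1A and 45.7 ± 1.66 CPM in GFP, and its log2 fold change was −1.16 (edgeR adjusted p = 1.33e-27). LAMTOR5 and LAMTOR2, of the Ragulator complex on the lysosome, rose by 1.43 and 0.56, the second not past a 1.5-fold change (glmTreat adjusted p = 0.774). An antisense gene covers 17.5% of the exon bases of LAMTOR5.

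Of 12 other kinases that LKB1 activates, 11 were tested, 5 higher and 6 lower, with a median of −0.11, and with total counts 3 were higher and 6 lower. SNRK, a kinase of the AMPK family, stood at 94.7 ± 2.47 CPM in PGC1A and 31.1 ± 1.45 CPM in GFP (log2 fold change 1.61, adjusted p = 4.53e-38), with 18.7% of its exon bases in an antisense gene. BRSK1, a kinase of neuronal polarity, rose by 1.32, while its relative BRSK2 fell by 0.83 and NUAK1 fell by 0.94. SIK1 had 0 counts in all libraries. Its near-identical copy SIK1B held 43, 43 and 39 counts in PGC1A and 19, 19 and 18 in GFP, so reads of the pair are uncertain.

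Calmodulin and the other CaMKK substrates were mostly lower, 7 of 9, with 2 higher and a median of −0.69, and with total counts 8 were lower and 1 higher. CAMK1D fell to 3.80 ± 0.120 CPM in PGC1A, against 15.9 ± 0.307 CPM in GFP (log2 fold change −2.06, adjusted p = 8.80e-28). CAMK1 fell by 1.32, but 80.1% of its exon bases overlap OGG1 on the opposite strand, so its count is uncertain. The kinase gene AKT1 rose by 0.54, and the calmodulin gene CALM2 by 0.24, which turned to −0.09 with total counts. Neither passed against a 1.5-fold change (glmTreat adjusted p = 1 for each).

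Of 22 genes whose products AMPK phosphorylates, 12 rose and 9 fell, and the median change was 0.37. With total counts 11 were higher and 10 lower. PFKFB2, an enzyme that makes the glycolytic activator fructose 2,6-bisphosphate, rose to 276 ± 1.24 CPM in PGC1A, against 28.2 ± 1.17 CPM in GFP (log2 fold change 3.29, SE 0.03, adjusted p = 6.47e-54). LIPE, hormone-sensitive lipase, rose by 2.37. The transcription factor gene FOXO3 fell to 19.9 ± 0.259 CPM in PGC1A, against 81.0 ± 1.03 CPM in GFP (log2 fold change −2.03), and the deacetylase gene HDAC5 fell by 1.88. The following related genes were chosen after their values were seen. ACACB, the mitochondrial acetyl-CoA carboxylase that restrains fat oxidation, had 134 ± 1.59 CPM in PGC1A and 31.5 ± 0.771 CPM in GFP (log2 fold change 2.08), while ACACA, the cytosolic form for fat synthesis, had 81.7 ± 2.43 CPM in PGC1A and 137 ± 0.647 CPM in GFP (log2 fold change −0.74). PFKFB3, the relative of PFKFB2, had 30.5 ± 1.75 CPM in PGC1A and 64.5 ± 1.22 CPM in GFP (log2 fold change −1.08). Other related genes of the list moved the same way, HDAC4 (log2 fold change −0.74) with HDAC5, and TBC1D1 (0.81) with TBC1D4 (1.27), both regulators of glucose transporter traffic.

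Of 7 genes of mTORC1 and its TSC brake, which stand under AMPK control, 6 rose and 1 fell, and the median change was 0.60. With total counts 4 were higher and 2 lower. MTOR, the kinase of the complex, stood at 266 ± 4.34 CPM in PGC1A and 106 ± 2.65 CPM in GFP (log2 fold change 1.33, adjusted p = 2.44e-40). TBC1D7, of the TSC complex, rose by 1.30, and DEPTOR, an inhibitor of mTOR, fell to 1.83 ± 0.230 CPM in PGC1A, against 9.90 ± 0.230 CPM in GFP (log2 fold change −2.43). Adenylate kinases set the AMP level that AMPK reads, and AMP deaminases remove AMP. Of 13 such genes, adenosine kinase included, 12 were tested, of which 6 rose and 4 fell. Their median change was 0.31 under TMM and −0.02 under total counts, where 5 were higher and 5 lower. The muscle-type AK1 rose by 2.69, whereas the brain-type AK5 fell by 2.59 and AMPD2 fell by 1.75. AK1 shares 33.5% of its exon bases with a gene on the same strand. The muscle deaminase gene AMPD1 had 0 counts in all libraries.

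**Figure D4:**
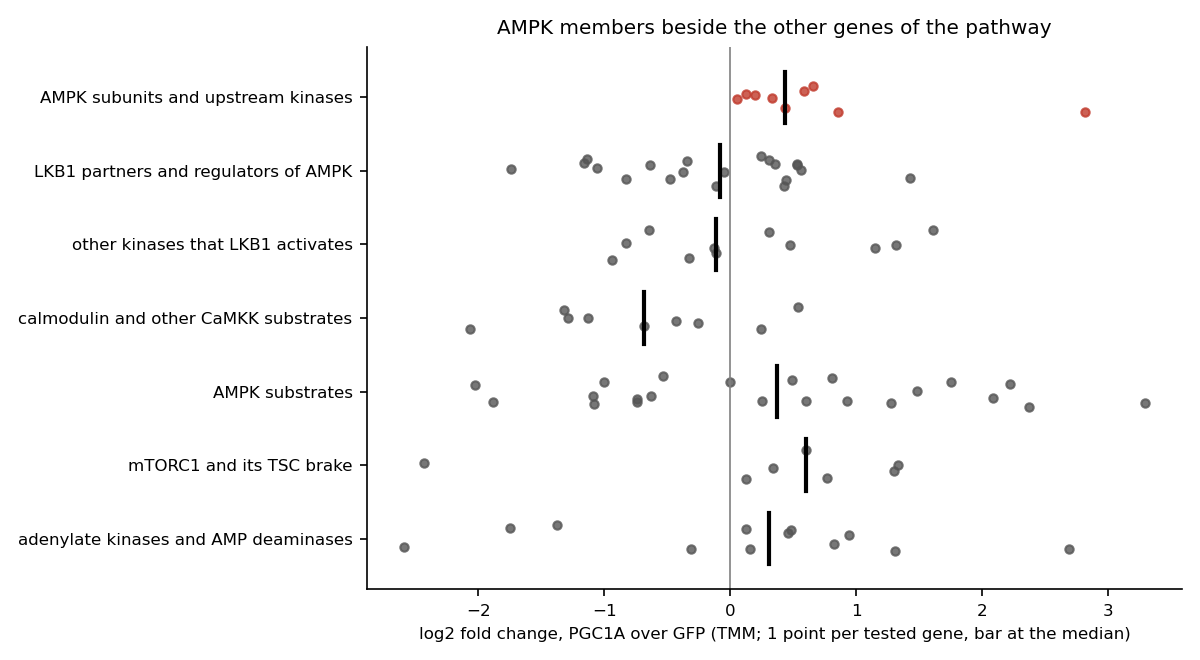
Log2 fold change of PGC1A over GFP under TMM scaling (horizontal axis) for each tested gene of the AMPK set (red) and of the 6 surrounding lists (grey), with a black bar at each list's median. The AMPK set lies between 0.05 and 2.82, while every other list has genes on both sides of 0. With total counts, not shown, 3 of the 9 genes of the AMPK set were lower.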

How the data were processed

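The authors deposited 1 table of raw read counts, a row per gene and a column per library, from directional poly(A) libraries per the labels' protocols. GRCh38 is the build, and HTSeq 0.10.0, STAR 2.6.0c, DRAGEN and DESeq2 1.20.0 are the tools, per the submitters' processing notes. Neither the annotation release nor the counting's strand option is given in the sources used here. The 5 HTSeq summary lines held 28.8% to 31.0% of reads and were left out of library sizes and tests. The table has a line for reads that matched more than 1 gene, so overlapping genes may be undercounted.

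Gene IDs were matched to GENCODE 29 (57492 of 58096), which gave coordinates, symbols and merged exon lengths. Differences were tested in R 4.3.3 with edgeR 4.0.16, using TMM factors, filterByExpr (minimum count 10, total 15), robust glmQLFit and glmQLFTest on group alone, two-sided, with Benjamini-Hochberg adjustment over 19343 genes and a threshold of 0.05. The fit was also run on simulated counts in which only a small set of genes changed. In the data 83.0% of genes passed, a setting that the simulation did not cover. CPM values are TMM-normalised. Alternatives were other scalings, filters, DESeq2 1.42.0, limma-voom (limma 3.58.1), glmTreat against a 1.5-fold change, a replicate block and leaving out each library. The 10 genes, the gene lists and the tests were chosen with earlier results of these data known. From each pathway list the text names the 2 members that rose most and the 2 that fell most past the threshold, at a mean of at least 1 CPM, and also the genes nearest to PRKAA2 in pattern. One gene that this rule takes is not reported here. Promoters come from RefSeq (GRCh38.p14). Counts carry no molecular identifiers, so limits from counts cover counting error only.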

Additional observations from a re-analysis of the deposited data

How the results depend on the processing

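PRKAA2, PRKAB1 and PRKAB2 kept their direction and their side of the threshold under all 17 alternatives, with log2 fold changes of 2.49 to 2.86 for PRKAA2, 0.33 to 0.70 for PRKAB1 and 0.52 to 0.89 for PRKAB2. PRKAG1 and STK11 lost the call only against a 1.5-fold change with glmTreat. That test left 3 of the 9 genes, all 3 higher, and 9241 of all genes, 4766 higher and 4475 lower. With total counts 5 of the 9 were higher and 3 lower, and with the total of nuclear genes, a setting chosen after seeing the data, 1 was lower. PRKAG2 turned to −0.13 with total counts and −0.018 with the total of nuclear genes, CAMKK1 to −0.20 and −0.084, and CAMKK2 to −0.28 and −0.16, and to −0.073 with upper-quartile factors; each setting shifts all genes alike. Leaving out 1 library gave 7 to 8 of the 9 genes and 15902 to 16072 of all genes. When the mitochondrial genome was left out of the TMM factors, 7 of the 9 genes passed, all higher, with PRKAA2 at 2.82. With total counts 5778 of all genes were higher and 10743 lower, against 7909 and 8148 with TMM.

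Same-numbered libraries did not deviate together (correlations −0.01, 0.01 and 0.01 for numbers 1, 2 and 3), so the numbers are not taken as pairs. With the replicate block 7 of the 9 genes, again all higher, and 16071 of all genes passed. The log2 ratio of PRKAA2 over PRKAA1 differed by 2.48 within numbers (SE 0.04). The exact permutation p was 0.25, the smallest that 3 numbers allow, so this test could not have passed. The gene length does not affect differences in ratio. Depth limits CAMKK1 most among the tested genes, with 202 to 274 counts per library, and PRKAG3 lay under what 3 counts allow.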
